A study of Rattus norvegicus with 6 samples.

Results

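The genes described here make, carry, break down and sense prostaglandins, and 9 of the 10 genes listed for this group had a row in a table of 32623 rat genes. The listed genes were the cyclooxygenases Ptgs1 and Ptgs2, the terminal synthases Ptges, Ptgis and Ptgds, the transporter Slco2a1, the degrading enzyme Hpgd, and the receptors Ptger2, Ptger4 and Ptgir. They were selected on measured values of the same comparison, because the read levels of Slco2a1 separated ischemia from sham. Their values between the groups are therefore a description and carry no test. Ptgis, the prostacyclin synthase, was not analysed here. All 9 genes with a row passed the filter on low values, a mean of at least 0.5 FPKM (fragments relative to gene length and library depth) over the 6 samples, as did 13964 genes in all. Ptgs2 and Ptger2 averaged less than that in sham and Hpgd averaged less in ischemia, so these 3 passed through 1 group only.

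Total RNA of myocardium from male wild-type rats was sequenced in 3 sham and 3 ischemia samples, all labelled 30 min. In the ischemia rats the left anterior descending coronary artery was tied around a piece of tubing after a left thoracotomy under ventilation, and the electrocardiogram served to check the occlusion. For sham rats no ligation is described, and the strain and age are not given in the labels. The labels also do not say which region was taken or whether flow was restored before collection. The samples carry separate replicate numbers, but no label says which animal each came from, so errors describe the spread between these samples.

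Prostaglandins are short-lived lipid signals that act near the cell that makes them. Phospholipases free arachidonic acid from membranes, a cyclooxygenase turns it into the common precursor prostaglandin H, and a terminal synthase makes the final product from that precursor. The transporter encoded by Slco2a1 carries prostaglandins into cells, where the dehydrogenase encoded by Hpgd inactivates them. Receptors on the cell surface, coupled to G proteins, read what is left outside. In the heart and its vessels these lipids are known for their effects on vessel tone, platelets and inflammation.

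The 250 bases before the annotated start of 4 of these genes are shown 5′ to 3′ along the strand of the gene, because they set the transporter, whose level separated the groups, beside both cyclooxygenases and the inducible synthase. Sequences and starts are those of RefSeq on build GRCr8, in which 9 of the 10 listed genes were matched. Slco2a1 lies at chr8:112467489-112467738 on the plus strand, Ptgs2 at chr13:64713813-64714062 on the plus strand, Ptgs1 at chr3:39981169-39981418 on the plus strand and Ptges at chr3:34586988-34587237 on the minus strand. Capitals mark the letters of a motif found on either strand.
Slco2a1: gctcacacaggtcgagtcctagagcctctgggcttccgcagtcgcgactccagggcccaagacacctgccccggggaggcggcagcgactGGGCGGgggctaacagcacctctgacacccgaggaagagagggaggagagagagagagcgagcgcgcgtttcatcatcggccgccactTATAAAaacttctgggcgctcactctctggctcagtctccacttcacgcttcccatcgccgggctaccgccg
Ptgs2: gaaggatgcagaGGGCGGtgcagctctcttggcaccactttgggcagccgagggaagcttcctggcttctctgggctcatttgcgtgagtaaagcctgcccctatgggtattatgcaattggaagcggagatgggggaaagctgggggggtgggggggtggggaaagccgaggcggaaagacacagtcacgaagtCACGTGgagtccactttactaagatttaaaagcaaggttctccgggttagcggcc
Ptgs1: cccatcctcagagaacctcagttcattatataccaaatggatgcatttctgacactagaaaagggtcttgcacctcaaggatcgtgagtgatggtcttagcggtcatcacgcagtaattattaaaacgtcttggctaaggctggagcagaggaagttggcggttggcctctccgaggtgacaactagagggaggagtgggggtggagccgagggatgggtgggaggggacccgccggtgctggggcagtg
Ptges: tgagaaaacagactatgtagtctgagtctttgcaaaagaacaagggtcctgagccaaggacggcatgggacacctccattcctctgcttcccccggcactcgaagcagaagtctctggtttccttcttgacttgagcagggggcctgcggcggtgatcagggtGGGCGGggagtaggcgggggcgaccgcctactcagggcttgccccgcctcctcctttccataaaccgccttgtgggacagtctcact

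The motifs were searched on both strands of these windows. Slco2a1 held the letters TATAAA of a TATA box from 72 to 67 bases before the start, as did 12.9% of 33469 rat promoter windows of the same length, and no other member held them. Ptgs2 held the E-box letters CACGTG from 55 to 50 bases before the start, which stood in 5.59% of all windows. The GC box letters GGGCGG stood in 6 of the 9 matched members and in 30.5% of all windows, and among the 4 genes shown they were in Slco2a1, Ptgs2 and Ptges. The AP-1 letters TGANTCA and the CRE letters TGACGTCA, found in 6.34% and 1.59% of all windows, were in 0 of the 9 members, which says only that these letters are not in these windows. GC content was 64.4% for Slco2a1, 57.2% for Ptgs2, 54.4% for Ptgs1 and 58.8% for Ptges, against a median of 51.2% over all windows. None of these matches was tested as a binding site.

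The 6 libraries held 68529126 to 79591989 counts, and the 9 members together took 2883, 2725 and 4113 of these in the sham samples (here and below in the order of replicates 1 to 3), against 9912, 20579 and 7961 in the ischemia samples. Several libraries stood apart. Sham replicate 1 held 161 counts on chromosome Y against 3218 to 8970 in the others, although all rats were labelled male. The summed FPKM of 5 atrial marker genes was 48358 and 39218 in sham replicates 1 and 3 but 218.7 in sham replicate 2, and 9619, 2084 and 1287 in the ischemia replicates. The sum over 5 lung epithelial markers was 412.9 in ischemia replicate 1, 15.3 in sham replicate 3 and between 0.0947 and 0.286 in the others. Ventricular cardiomyocyte markers, among them Myh6, Tnnt2 and Tnni3, were present in every library, but not all evenly. FPKM of Myl2 was 366.0, 2794.7 and 346.5 in sham and 1314.7, 594.2 and 1237.9 in ischemia. For Myl3 it was 796, 9023.8 and 1021 in sham and 5691.3, 3180.3 and 5780 in ischemia. Both were lowest in sham replicates 1 and 3, where the atrial sums were highest, while Myh6, Tnnt2 and Tnni3 were lowest in ischemia replicate 2. Fold changes of the members are therefore also given as a range over the 6 fits that each left out 1 library.

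Among the 9 members, 5 were higher in every ischemia sample than in any sham sample, namely Slco2a1, Ptgs2, Ptges, Ptger2 and Ptgir. Ptgds alone was lower in every ischemia sample than in any sham sample, and Ptgs1, Hpgd and Ptger4 overlapped. Over all tested genes, 23.6% lay above sham in every ischemia sample and 15.0% lay below. In the fit across all genes with the quasi-likelihood test of edgeR, 3 members (Slco2a1, Ptger2 and Ptgir) were past an adjusted p of 0.05 on the higher side and 0 on the lower side. At an unadjusted p of 0.05, 5 were higher and 1 was lower, as were 18.2% and 14.2% of all tested genes. All 3 members lost the call when any of the 3 sham libraries or ischemia replicate 3 was left out, with 6 members at an unadjusted p under 0.05 in each of those fits. Over all genes 5.18% were called higher and 1.53% lower. DESeq2, which gave Ptgs2 no p-value, called 4 of the other 8 members higher and 1 lower, and 14.9% and 12.6% of all genes with an adjusted p. The median log2 fold change of the 9 members was 2.37 against -0.0015 for all tested genes, and 7 of the 9 were above 0. Since the members were picked from this comparison, nothing is read from these counts. In whole tissue, fewer cells of a type and less RNA per cell cannot be told apart.

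**Figure D1:**
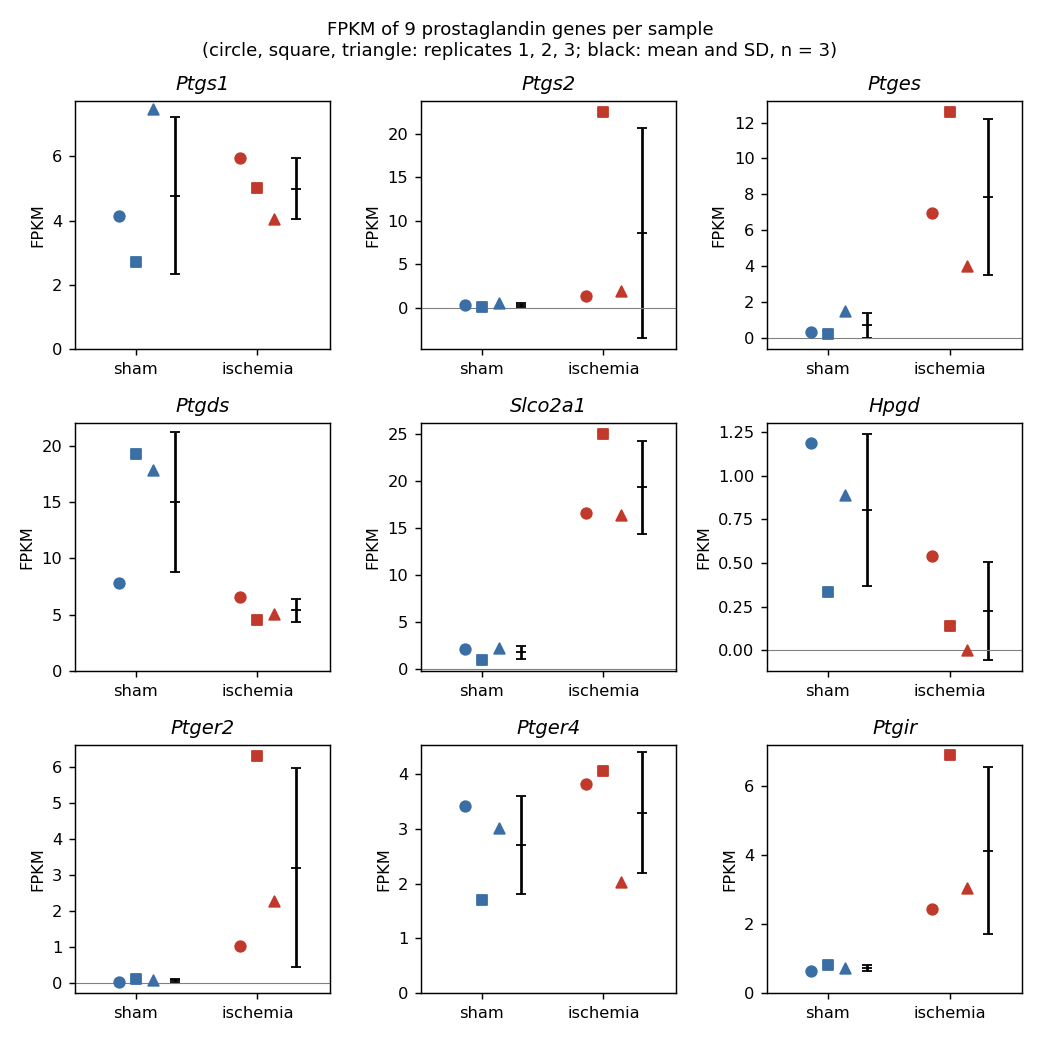
FPKM of the 9 members in each sample, with 1 panel per gene; points are samples (sham and ischemia, 3 each) and bars give the mean with its SD. Slco2a1 lies at 0.984 to 2.19 in sham and at 16.3 to 25.0 in ischemia, while Ptgs1 and Ptger4 overlap between the groups.

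Among the cyclooxygenases, the inducible Ptgs2 was higher in every ischemia sample and the constitutive Ptgs1 was not separated. FPKM of Ptgs2 was 0.358, 0.0912 and 0.543 in sham, against 1.37, 22.5 and 1.87 in ischemia. Ischemia replicate 2 was far above the other two, 16.4 times the lowest ischemia sample, and held 7378 counts against 494 and 582. The mean was 0.331 ± 0.227 FPKM in sham and 8.58 ± 12.1 in ischemia (SD, n = 3 each). The log2 fold change of Ptgs2 was 4.59 ± 1.28 (SE), and without ischemia replicate 2 it fell to 2.32, the lowest value with any 1 library left out, the highest being 5.09. FPKM of Ptgs1 was 4.15, 2.73 and 7.48 in sham, against 5.95, 5.0 and 4.04 in ischemia. All 3 ischemia values lay inside the sham range, and the log2 fold change was 0.01 ± 0.34 (SE), with -0.20 to 0.41 when 1 library was left out. In the file's coordinates, whose build is not given in the sources used here, Ptgs2 spans 67351087 to 67359335 on the plus strand of chromosome 13 and Ptgs1 spans 15560712 to 15582344 on the plus strand of chromosome 3.

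The balance of the cyclooxygenases followed Ptgs2. On the FPKM scale, Ptgs2 made up 7.95%, 3.23% and 6.77% of the sum of both genes in sham and 18.7%, 81.8% and 31.7% in ischemia. The groups did not overlap in this share, and Ptgs2 was the larger part of the sum in ischemia replicate 2 alone. As the share uses Ptgs2, it adds no evidence beyond the values of that gene.

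**Figure D2:**
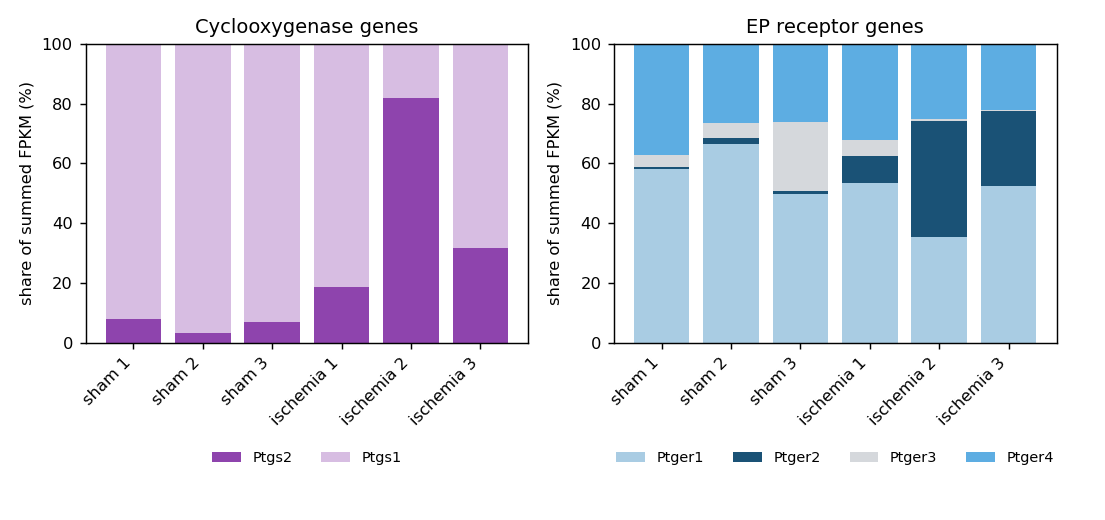
Share of FPKM per sample within the cyclooxygenases and within the prostaglandin E receptors, in percent. The Ptgs2 share runs from 3.23% to 7.95% in sham and from 18.7% to 81.8% in ischemia, and the Ptger2 share from 0.539% to 2% in sham and from 8.77% to 39.1% in ischemia.

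The terminal synthases differed in direction. Ptges encodes the inducible microsomal prostaglandin E synthase, which works with Ptgs2, and its FPKM was 0.354, 0.241 and 1.5 in sham, against 6.94, 12.6 and 4.01 in ischemia. Sham replicate 3 was the highest of the sham samples, yet the lowest ischemia sample lay above it. The mean was 0.698 ± 0.697 FPKM in sham and 7.84 ± 4.36 in ischemia (SD, n = 3 each), and the log2 fold change was 3.43 ± 0.78 (SE), with 2.98 to 4.54 when 1 library was left out. Ptgds encodes the lipocalin-type prostaglandin D synthase, and its FPKM was 7.84, 19.3 and 17.9 in sham, against 6.54, 4.55 and 5.09 in ischemia. Sham replicate 1 was close to ischemia replicate 1, so the groups were separated by a small gap. The mean was 15.0 ± 6.23 FPKM in sham and 5.39 ± 1.03 in ischemia (SD, n = 3 each), and the log2 fold change was -1.59 ± 0.44 (SE), with -1.93 to -1.23 when 1 library was left out. Ptges stood at 0.0125 to 0.0840 times the FPKM of Ptgds in sham and at 0.788 to 2.76 times in ischemia. Both genes lie on the minus strand of chromosome 3 in the file's coordinates, Ptges from 9727408 to 9738752 and Ptgds from 2686123 to 2689084.

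Slco2a1, the prostaglandin transporter, had the highest mean FPKM of the 9 members in ischemia and the fourth highest in sham. Its FPKM was 2.15, 0.984 and 2.19 in sham and 16.6, 25.0 and 16.3 in ischemia, from 658, 321 and 638 counts and 5503, 7526 and 4658 counts. Sham replicate 2 was the lowest and ischemia replicate 2 the highest, and the lowest ischemia sample stood 7.46 times above the highest sham sample. The mean was 1.77 ± 0.684 FPKM in sham and 19.3 ± 4.91 in ischemia (SD, n = 3 each). The fitted log2 fold change was 3.38 ± 0.30 (SE), which is 10.4-fold. The estimate ran from 3.15 to 3.51 when 1 library was left out, and it was past the adjusted threshold in 2 of those 6 fits. Its SE was the smallest among the members, which is the property the group was chosen by. Slco2a1 ranked 7 by unadjusted p but 261 by fold change among the 13964 genes tested, a description of the same values. The gene spans 111495331 to 111577833 on the plus strand of chromosome 8 in the file's coordinates, and a row on the other strand that overlaps it held 0 counts.

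Hpgd, which inactivates the prostaglandins that have been taken up, was low in every sample. It had 153, 46 and 109 counts in sham and 75, 18 and 0 in ischemia, where a count of 0 allows up to 3 counts. FPKM was 1.19, 0.332 and 0.890 in sham and 0.540 and 0.137 in ischemia replicates 1 and 2, while ischemia replicate 3 was listed at 0.0001, the value the table gives to genes without reads. Ischemia replicate 1 lay above sham replicate 2, so the groups overlapped. The log2 fold change was -1.85 ± 1.32 (SE), and it ran from -3.61 to -1.28 when 1 library was left out. Hpgd lies on the minus strand of chromosome 16 from 37457135 to 37495758 in the file's coordinates.

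Of the receptors, Ptger2 and Ptgir were higher in every ischemia sample and Ptger4 was not separated. Ptger2 encodes a receptor for prostaglandin E that raises cyclic AMP, and it was barely read in sham, with 8, 21 and 15 counts against 168, 928 and 318 in ischemia. Its FPKM was 0.0495, 0.129 and 0.0986 in sham, against 1.04, 6.32 and 2.28 in ischemia. The lowest ischemia sample stood 8.01 times above the highest sham sample, and within ischemia replicate 2 was again the highest. The log2 fold change was 4.87 ± 0.83 (SE), with 4.02 to 5.29 when 1 library was left out. Ptger4 encodes another receptor for prostaglandin E that raises cyclic AMP, and its FPKM was 3.42, 1.71 and 3.02 in sham, against 3.82, 4.06 and 2.02 in ischemia. The sham and ischemia values were interleaved, and the log2 fold change was 0.21 ± 0.36 (SE), with 0.03 to 0.44 when 1 library was left out. Ptgir encodes the prostacyclin receptor, and its FPKM was 0.645, 0.816 and 0.707 in sham, against 2.43, 6.87 and 3.05 in ischemia. The sham samples were close together, at 0.723 ± 0.0869 FPKM (SD, n = 3), while the ischemia samples spread over 4.12 ± 2.41 (SD, n = 3). The log2 fold change of Ptgir was 2.37 ± 0.44 (SE), with 1.86 to 2.61 when 1 library was left out. In the file's coordinates Ptger2 spans 19338175 to 19350210 on the plus strand of chromosome 15, Ptger4 54952821 to 54963448 on the minus strand of chromosome 2, and Ptgir 78833157 to 78837623 on the plus strand of chromosome 1.

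The mix of prostaglandin E receptors can be given as shares of the summed FPKM of Ptger1, Ptger2, Ptger3 and Ptger4. Ptger2 took 0.539%, 2% and 0.853% in sham, against 8.77%, 39.1% and 25% in ischemia. Ptger1, which is coupled to calcium signals, took 58.1%, 66.6% and 49.8% in sham and 53.6%, 35.2% and 52.4% in ischemia, and Ptger4 took 37.3%, 26.3% and 26.2% against 32.3%, 25.1% and 22.2%. Ptger2 did not overlap between the groups in this share, while Ptger1 and Ptger4 did. Ptger3 was uneven, at 4.05%, 5.06% and 23.2% in sham and 5.34%, 0.533% and 0.426% in ischemia.

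**Figure D3:**
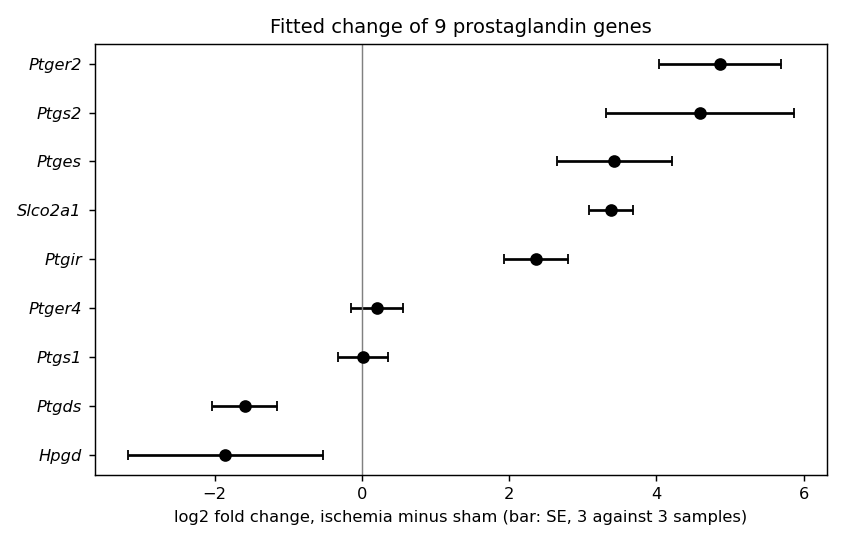
Log2 fold change of ischemia against sham for the 9 members from the fit across all genes; points are estimates and bars their SE, from 3 samples per group. Slco2a1 has the shortest bar, at 3.38 ± 0.30, Hpgd the longest, at -1.85 ± 1.32, and Ptgs1 sits at 0.01.

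The order of the levels, per length, differed between the groups. In sham the mean FPKM ran from Ptgds (15.0) over Ptgs1 (4.78), Ptger4 (2.72), Slco2a1 (1.77), Hpgd (0.805), Ptgir (0.723), Ptges (0.698) and Ptgs2 (0.331) to Ptger2 (0.0925). In that order only Ptgds had every sample above every sample of its neighbour, and all other neighbours overlapped. In ischemia it ran from Slco2a1 (19.3) over Ptgs2 (8.58), Ptges (7.84), Ptgds (5.39), Ptgs1 (5.0), Ptgir (4.12), Ptger4 (3.30) and Ptger2 (3.21) to Hpgd (0.226), and there only Ptger2 had every sample above every sample of its neighbour. The place of Ptgs2 in ischemia rests on replicate 2, at 22.5 FPKM, since replicates 1 and 3 were at 1.37 and 1.87. Set among all tested genes, the mean FPKM of Slco2a1 was at the 21.3 percentile in sham and at 74.5 in ischemia, while Ptgs1 was at 43.1 and 41.9.

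Genes were also ranked by how closely their log2 CPM (counts scaled to a common library size) tracked those of Slco2a1 over the 6 samples, which fall into the groups and share their depth. Only tested genes with a standard gene symbol were ranked. The closest of them were Gmppb (Pearson's r = 0.996), an enzyme of GDP-mannose synthesis, the ribosomal protein genes Rpl4 (0.995) and Rps27a (0.995), Erh (0.994) and Gpnmb (0.994), a glycoprotein known from macrophages. The FPKM of Gmppb was 6.5, 4.47 and 6.25 in sham and 13.1, 17.4 and 12.8 in ischemia, so that sham replicate 2 was again the lowest and ischemia replicate 2 the highest. Reads of ribosomal protein genes can be split with near-identical copies, so the values of those 2 genes are uncertain. Over all tested genes, 549 (3.93%) had an r above 0.95. Of the members, Ptges came closest with 0.944, followed by Ptger2 with 0.924, Ptgir with 0.916 and Ptgs2 with 0.879, while Ptger4 (0.371) and Ptgs1 (0.195) tracked it weakly and Hpgd (-0.60) and Ptgds (-0.88) ran the other way.

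The rest of the pathway was listed from what the genes are known to do, but with earlier results of these data known. It held 51 genes in all, of which 48 had a row and 38 were tested. Of these 38, 3 (7.89%) were higher in ischemia by the quasi-likelihood test of edgeR at an adjusted p of 0.05, against 5.18% of all genes, and 0 were lower, against 1.53%. At an unadjusted p of 0.05, 6 were higher and 10 lower, against 18.2% and 14.2% of all genes. DESeq2 called 4 higher and 8 lower, against 14.9% and 12.6% of all genes. The median log2 fold change of the 38 was -0.40, and 26 of them were below 0. In 11 of the 38 every ischemia sample lay below every sham sample, against 15.0% of all genes, and in 4 every one lay above, against 23.6%. All 3 calls were lost when any of the 3 sham libraries or ischemia replicate 3 was left out, and that of Tbxas1 also without ischemia replicate 2.

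The 3 called genes are known from leukocytes or platelets. Tbxas1, thromboxane synthase, had an FPKM of 0.95, 0.946 and 2.08 in sham and 3.92, 15.0 and 7.72 in ischemia, a log2 fold change of 2.65 ± 0.55 (SE, edgeR adjusted p = 0.0455). Alox5ap, the helper of the lipoxygenase that starts leukotriene synthesis, had 6.84, 5.08 and 8.96 in sham and 21.9, 128.2 and 32.9 in ischemia, a log2 fold change of 3.01 ± 0.66 (SE, edgeR adjusted p = 0.0496). Ltb4r, the receptor for leukotriene B, had 0.381, 0.110 and 0.384 in sham and 4.0, 29.7 and 15.8 in ischemia, a log2 fold change of 5.72 ± 0.86 (SE, edgeR adjusted p = 0.0303). Ltb4r averaged less than 0.5 FPKM in sham, so it passed the filter through ischemia only, and nothing is read from the share of the 38 genes that it is counted in. All 3 were highest in ischemia replicate 2, and none overlapped between the groups.

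**Figure D4:**
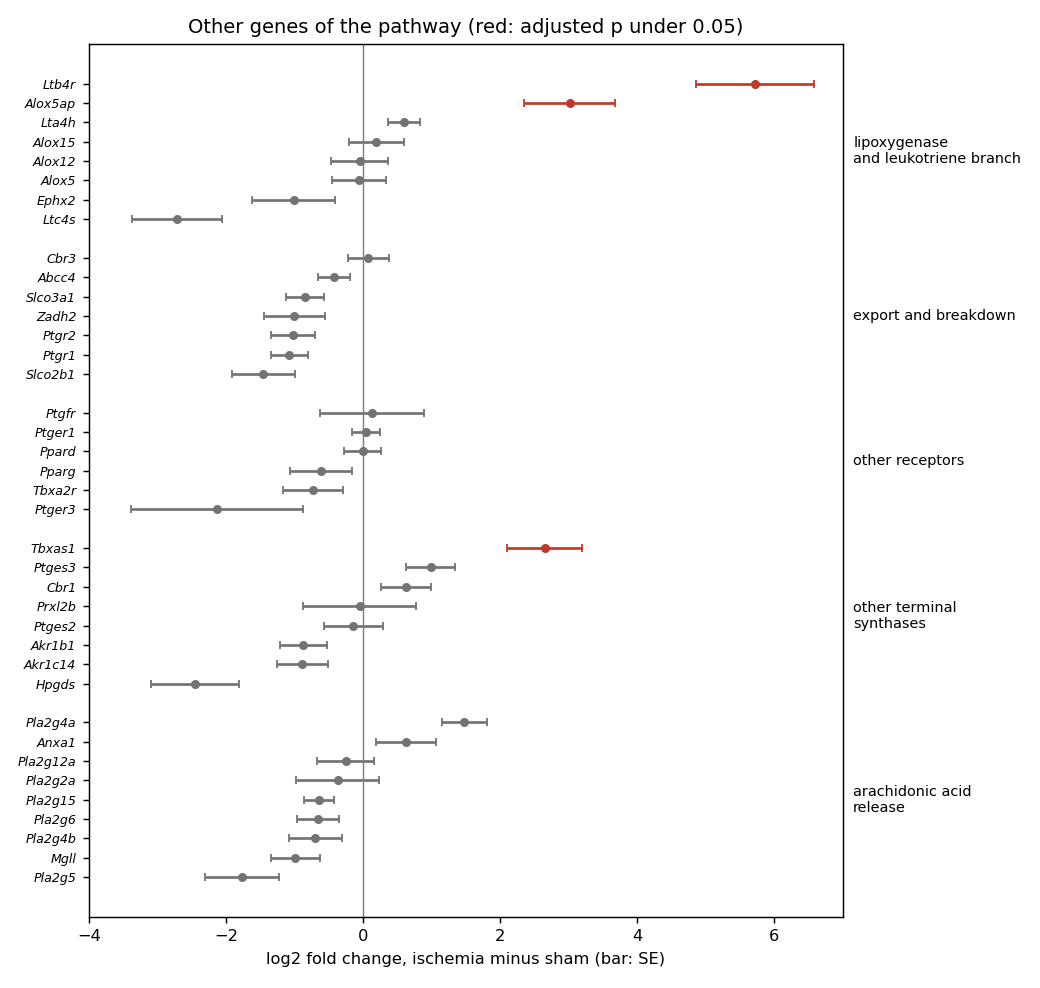
Log2 fold change of ischemia against sham for the 38 tested pathway genes that are not members, grouped by their step, with red for those past the adjusted p of edgeR and bars for the SE. Of the 38, 26 lie below 0, and the 3 red points (Tbxas1, Alox5ap and Ltb4r) all lie above it.

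By step, the release of arachidonic acid had 9 tested genes, of which 0 were called and 2 were above 0, with a median log2 fold change of -0.65. The most abundant by mean FPKM over the 6 samples, though not in ischemia replicate 2, was Pla2g2a, a secreted phospholipase. It was at 188.7, 118.1 and 120.8 FPKM in sham and 205.5, 36.2 and 101.7 in ischemia, and it was not called (-0.37 ± 0.60, SE, edgeR adjusted p = 0.691). Of the 8 other terminal synthases Tbxas1 was the only call. The most abundant by the same mean, though not in ischemia replicate 2, was Akr1b1, an aldose reductase that also makes prostaglandin F. It was at 231.6, 265.1 and 212.2 FPKM in sham and 191.9, 94.6 and 127.7 in ischemia (-0.87 ± 0.34, SE, edgeR adjusted p = 0.141). The 6 other receptors tested gave 0 calls. Ppard, a nuclear receptor, was the most abundant by this mean, though not in sham replicates 1 and 3, at 9.50 to 13.8 FPKM in sham and 9.89 to 15.1 in ischemia. Export and breakdown had 7 tested genes, 0 of them called and 1 above 0, with a median of -1.0. Its most abundant gene, Ptgr1, which reduces prostaglandins and leukotrienes, was at 93.7, 57.4 and 85.2 FPKM in sham and 46.4, 27.9 and 42.1 in ischemia, and every ischemia sample lay below every sham sample, but the gene was not called (-1.07 ± 0.27, SE, edgeR adjusted p = 0.06). The 8 tested genes of the lipoxygenase branch held the other 2 calls, and Alox5ap had its highest mean FPKM over the 6 samples, although in every sham sample it lay below Lta4h and Ephx2.

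Values of marker genes of several cell types are given beside those of the members, and the lists differed in direction. The 8 tested genes of 11 listed for neutrophils and monocytes were all higher in ischemia by edgeR, with a median log2 fold change of 6.07, and their list summed to 15.0, 31.3 and 13.7 FPKM in sham and 1444.5, 3802.4 and 816.0 in ischemia. Of that list, Fpr1 had 0 counts in all libraries but ischemia replicate 2. The sum was highest in ischemia replicate 2, where Ptgs2, Ptges, Slco2a1, Ptger2 and Ptgir were also highest. Markers of the endothelium, where Slco2a1 and Ptgir are known to be expressed, gave 0 calls among 9 tested genes, and their sum was 265.4, 291.5 and 276.1 in sham, against 338.1, 376.8 and 335.4 in ischemia. Every ischemia sum lay above every sham sum. By gene, Esam and Egfl7 lay above sham in every ischemia sample, Emcn lay below, and the other 6 overlapped, among them Cldn5 with 0 counts in 4 libraries. Resident macrophage markers summed to 247.6, 197.6 and 277.1 in sham, against 219.7, 265.0 and 206.3 in ischemia, with 1 of 7 genes (Cd163) called higher by edgeR. These genes went in both directions. Cd163, Mrc1 and Csf1r lay above sham in every ischemia sample, C1qa and C1qc lay below, and C1qb and Folr2 overlapped. Platelet markers, nearly all of it Pf4, summed to 55.6, 22.0 and 49.4 in sham, against 63.3, 172.4 and 65.0 in ischemia. Only Pf4 lay above sham in every ischemia sample. Itga2b (log2 fold change -0.35 ± 0.38, SE) and the untested Ppbp, Gp9 and Gp1ba overlapped. Fibroblast markers summed to 1144, 698.3 and 2247 in sham and 706.2, 279.5 and 271.4 in ischemia, and epicardial markers to 46.6 to 103.2 in sham and 5.01 to 35.4 in ischemia. Ventricular markers summed to 27367, 43786 and 25763 in sham and 25550, 12793 and 24333 in ischemia, lowest in ischemia replicate 2. Of the 9 ventricular markers 2 had a log2 fold change above 0, 3 (Myh6, Actc1 and Ryr2) lay below sham in every ischemia sample, and the other 6, Myh7 and Myl3 among them, overlapped. Adipocyte markers summed to 20.3, 36.5 and 186.7 in sham, against 18.8, 0.372 and 0.207 in ischemia. The part of these cell types in the values of the members was not tested.

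**Figure D5:**
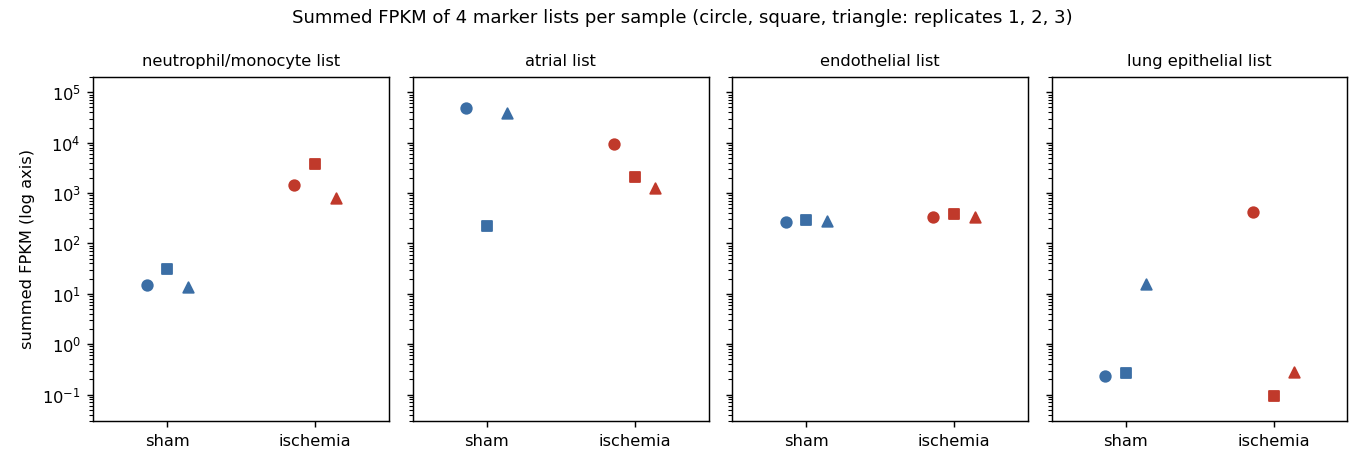
Summed FPKM of 4 marker lists per sample on a shared log axis, with circle, square and triangle for replicates 1, 2 and 3. The neutrophil and monocyte sum runs from 13.7 to 31.3 in sham and from 816.0 to 3802.4 in ischemia, the endothelial sum from 265.4 to 291.5 in sham and from 335.4 to 376.8 in ischemia, and the atrial and lung sums are uneven within a group.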

How the data were processed

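Total RNA of 3 sham and 3 ischemia myocardium samples was sequenced with a strand-aware library kit. The table deposited by the authors held raw counts per gene and FPKM, fragments relative to gene length and library depth as computed by the authors, in which genes without reads stood at 0.0001. STAR and HTSeq are named in the submitters' processing notes, without versions, and the genome build and counting rule are not given in the sources used here. The ratio of counts to FPKM kept 1 factor per sample, within 1%, in 99.8% of 11233 genes. Libraries held 68529126 to 79591989 counts, so that 3 counts, the most that a count of 0 allows, were 0.0377 to 0.0438 CPM. Errors of this kind cover counting only.

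Genes averaging 0.5 FPKM or more over the samples (13964 of 32623) were tested with the quasi-likelihood test of edgeR 4.0.16 (R 4.3.3) on the counts, with TMM scaling and no covariate, and p-values were adjusted by Benjamini-Hochberg over all tested genes (threshold 0.05, two-sided). The SE of a log2 fold change was its size divided by the square root of F. Alternatives were DESeq2 1.42.0, limma 3.58.1 on log2(FPKM + 0.1) and log2(FPKM + 1), other scalings and filters, a replicate block and leaving out each sample. The members and all gene lists were chosen with earlier results of these data known. Named were all members, and the called genes and the gene of highest mean FPKM of each pathway list. Also named were the 5 genes with a standard symbol that tracked Slco2a1 most closely and defining genes of the marker lists. Ptger1, Ptger3, Lta4h and Ephx2 were named after their values were seen. Motifs were searched in RefSeq promoter windows (GRCr8) on both strands. Figures were drawn with matplotlib 3.10.9 in Python 3.11.15.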

Additional observations from a re-analysis of the deposited data

How the results depend on the processing

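The counts of genes called higher, genes called lower, members and other pathway genes were 723, 214, 3 and 3. With equal totals in place of TMM, 83 genes were lower and 1 pathway gene was called, and the share of calls that were higher went from 77.2% to 86%. With no filter, 93 genes were lower and 1 pathway gene was called (84.1% higher). With a mean FPKM of at least 5, only Slco2a1 and Ptgds of the members could be tested, 1 was called, and 5 pathway genes were. DESeq2 called 2071 genes higher and 1742 lower (54.3% higher), with 5 members and 12 pathway genes. Leaving out 1 sample gave 0 to 1490 genes higher, 0 to 1115 lower, 0 to 5 members and 0 to 12 pathway genes. There were 0 calls by edgeR without sham replicate 1, 2 or 3 or ischemia replicate 3, with 3090, 3809, 3255 and 3020 genes at an unadjusted p under 0.05.

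The replicate numbers did not pair the samples (same-number correlations of deviations of -0.053, -0.083 and -0.19), and with them as a replicate block edgeR called 0 genes higher, 0 lower, 0 members and 0 pathway genes, with 3349 genes at an unadjusted p under 0.05. The log2 fold change of Ptgs1 turned to -0.011 with RLE scaling and -0.012 with DESeq2, and ran from -0.20 to 0.41 with 1 sample left out. Over all alternatives that of Slco2a1 ran from 2.88 to 3.51, past the threshold in 9 of 14, that of Ptger2 from 1.74 to 5.29 (7 of 13) and that of Ptgir from 1.48 to 2.61 (8 of 13). The cause of these shifts was not tested.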
